A study of Mus musculus with 12 samples.

Results

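The proteasome genes of mouse liver were the protein-coding genes of the count table whose GENCODE M21 symbol begins with Psm, a letter from a to g and a digit. This name rule used no measured value and found 50 of the 53465 genes. Of these, 14 encode the standard subunits of the core particle, 17 encode subunits of the cap, 3 encode the inducible catalytic subunits of the immunoproteasome, 5 encode alternative activators and 7 encode assembly chaperones. The other 4 were Psmf1, which encodes the inhibitor PI31, Psma8 and Psmb11, which encode core variants of the germ line and the thymus, and Psmc3ip, a meiotic recombination factor that shares only the name pattern.

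The proteasome is the barrel-shaped protease that degrades proteins tagged with ubiquitin. The core particle stacks rings of alpha subunits, which gate the pore, around rings of beta subunits, of which Psmb6, Psmb7 and Psmb5 encode the caspase-like, trypsin-like and chymotrypsin-like active sites. The cap recognises ubiquitin and unfolds substrates with a ring of ATPases, and interferon induces Psmb9, Psmb10 and Psmb8, whose products replace the standard active sites and alter the peptides available for display to T cells.

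RNA was measured by RNA-seq in whole livers of C57BL/6N mice, 4 at 3 months (young), 4 at 12 months (middle-aged) and 4 at 18 months (aged), each library from 1 animal, with no treatment or genetic change given for any group. The question of these comparisons was how RNA levels differ with age. The libraries held between 8124312 and 10527159 gene counts, and levels below are normalised counts, that is counts divided by a size factor per library. Hepatocyte markers were high in every library (summed level of 10 genes 856636 to 1093495), and fewer cells of a type cannot be told apart from less RNA per cell in whole tissue. Young 2 had the highest mitochondrial share of gene counts (19.16%, against 5.481 to 10.68% elsewhere), and young 3 and middle-aged 1 had the most genes detected (22284 and 19982, against 16361 to 17563). Replicates 1 and 2 of every age also differed from replicates 3 and 4 in the composition of the added spike-in RNAs (correlation at least 0.997 within these sets and at most 0.925 between them), which is a measured split and not a labelled batch.

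Proteasome genes together took 0.378 to 0.458% of the gene counts of a library. Per kilobase of annotated exon, mean levels over the 12 livers ranged in the core from 179 normalised counts for Psmb7 to 943 for Psmb4, which encodes the beta7 subunit, with a median of 423. In the cap they ranged from 148 for the scaffold gene Psmd1 to 846 for the ATPase gene Psmc1, with a median of 310. The inducible catalytic genes were lower per kilobase, at 47.5 for Psmb9, 52.7 for Psmb8 and 189 for Psmb10. Among activators, Psme2 had the highest level (438) and its copy Psme2b the lowest (18.4), and among chaperones Psmg1 had the highest (174) and Psmg3 the lowest (31).

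**Figure D1:**
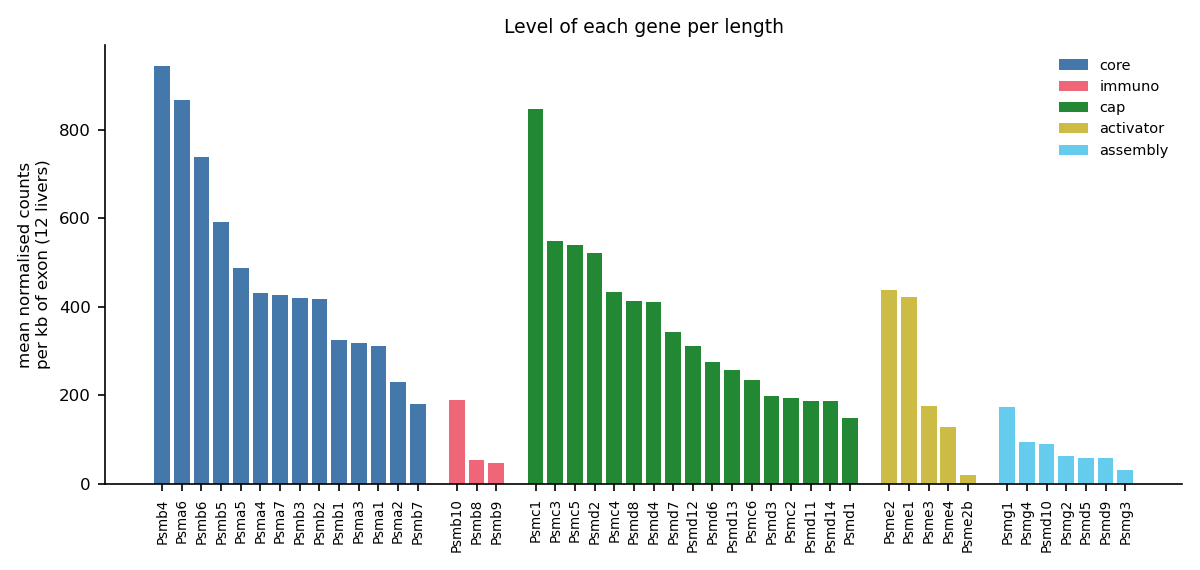
Bars show the mean normalised count per kilobase of annotated exon over the 12 livers (vertical axis) for each gene, coloured by class. Psmb4 (943) and Psmc1 (846) stood highest in the core and the cap, and Psmb9 and Psmb8 were at 47.5 and 52.7.

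Against young livers, 3 proteasome genes were lower in aged livers at a DESeq2 adjusted p under 0.05 (Psmb7, Psmb2 and Psmb9) and 3 in middle-aged livers (Psmb1, Psmb2 and Psmd8), and none was higher at either age. In aged livers 49 of the 50 could be tested, and of all 13527 genes tested 3.58% were called and 1.71% were called lower. In middle-aged livers 47 could be tested, and of 11333 genes 6.41% were called and 2.90% were called lower, and the proteasome counts to read against the shares called lower are 3 of 49 and 3 of 47. Most differences were small and of 1 sign: 43 of the 49 tested had an aged fold change below 0 with a median log2 of -0.16, and 44 of the 47 had a middle-aged one below 0 with a median of -0.21. Over all genes tested the medians were -0.00 and 0.01, with 50.1% and 48.9% below 0. These directions are relative to the bulk of genes, because size factors from the spike-ins raised the median of all genes by 1.18 (aged) and 1.50 (middle-aged) and put all 46 subunit, activator and chaperone genes above 0 (log2 0.51 to 1.34 and 1.14 to 1.54). Spike-ins made up 3.5 to 10.63% of counts in young livers and 1.589 to 3.513% in the others.

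**Figure D2:**
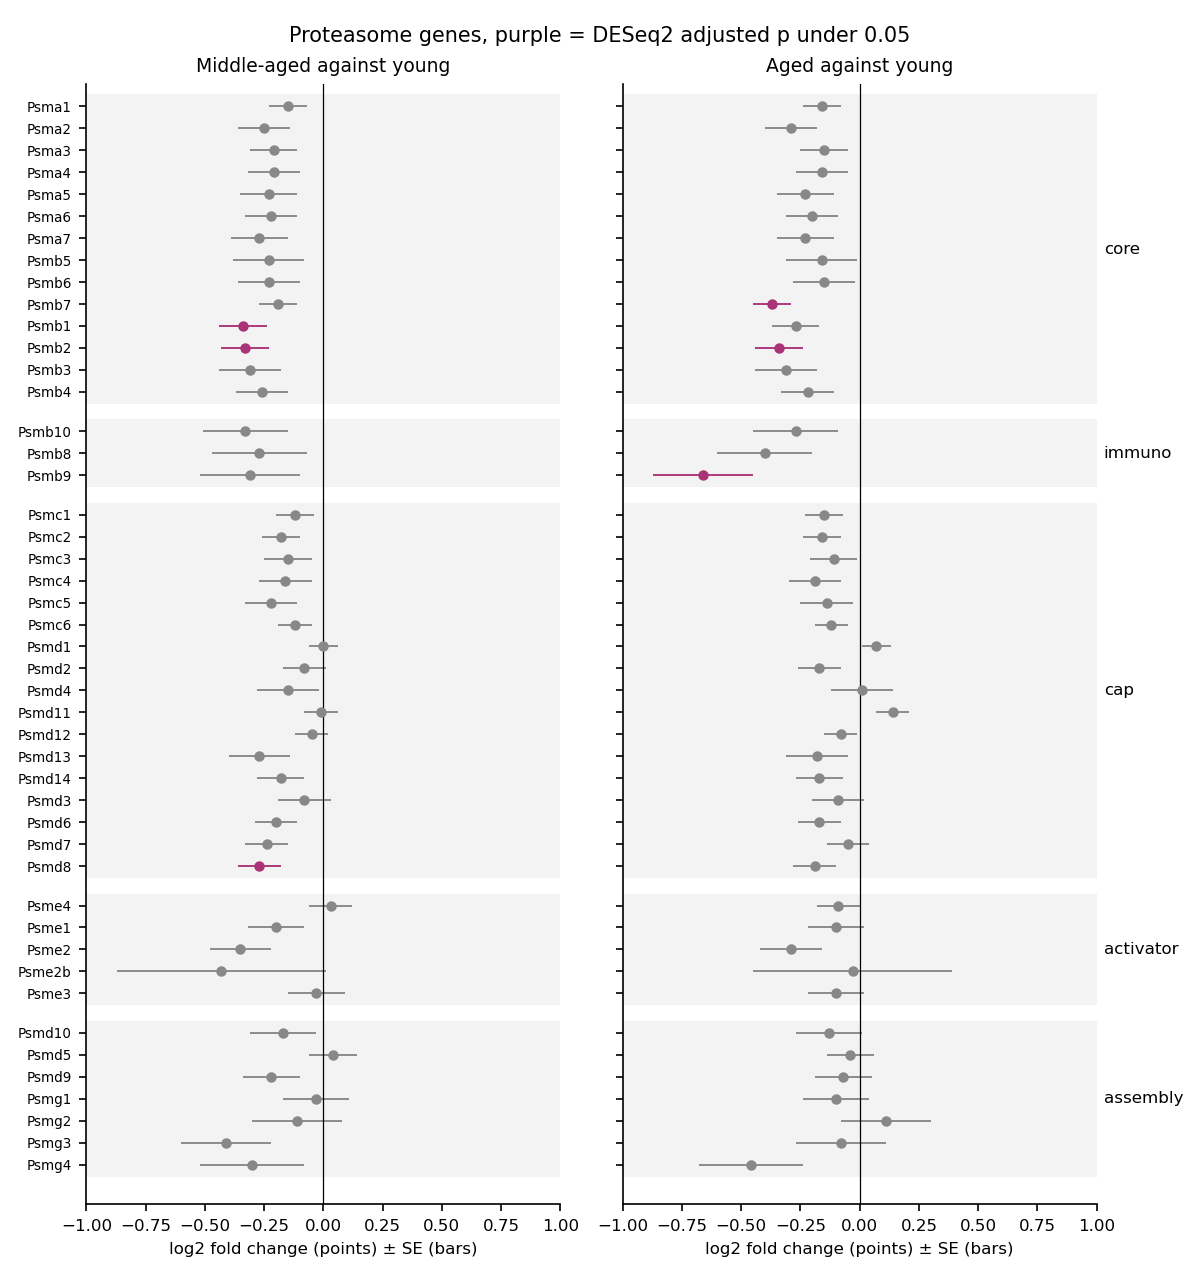
Points show the DESeq2 log2 fold change against young livers (horizontal axis, bars are SE) of the genes in 5 classes, in middle-aged livers on the left and aged livers on the right, 4 livers per age, with genes at an adjusted p under 0.05 in purple. All 14 core genes lay below 0 in both panels with median-of-ratios size factors, and all lay above 0 with spike-in size factors.

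Psmb7, the core gene of the trypsin-like active site (chr2:38588036-38644087, minus strand, GRCm38), was the member with the lowest adjusted p in aged livers. Its level was 678.3, 724.7, 692.0 and 680.5 in young livers, 597.7, 597.9, 641.9 and 589.3 in middle-aged livers and 570.0, 495.1, 493.8 and 581.0 in aged livers. The 3 ages did not overlap, with young highest and aged lowest. Psmb7 fell by 22.9% in aged against young livers (log2 fold change -0.37, SE 0.08, n = 4 per age, DESeq2 adjusted p = 0.000652, edgeR adjusted p = 0.0392). In middle-aged livers the log2 fold change was -0.19 with an adjusted p of 0.131. Psmb7 shares 405 exonic bases, 11.8% of its exonic length, with Nek6 on the opposite strand, and Nek6 had a log2 fold change of -0.14 in aged livers (adjusted p = 0.555).

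Psmb2, the beta4 subunit gene of the core (chr4:126677630-126709714), was called at both ages. Its level was 574.3, 584.6, 532.0 and 638.5 in young livers, 469.6, 440.8, 453.0 and 497.1 in middle-aged livers and 515.8, 446.0, 398.5 and 477.3 in aged livers. Every older liver was below every young one, while middle-aged and aged livers overlapped. Psmb2 fell by 21.2% in aged livers (log2 -0.34, SE 0.10, DESeq2 adjusted p = 0.0242) and by 20.2% in middle-aged livers (log2 -0.33, SE 0.10, DESeq2 adjusted p = 0.0261), and edgeR called neither (adjusted p = 0.0913 and 0.0817). Both comparisons share the young livers.

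Psmb1, the beta6 subunit gene (chr17:15475021-15499751), had levels of 1673, 1858, 1620 and 1665 in young livers, 1384, 1360, 1291 and 1365 in middle-aged livers and 1688, 1257, 1289 and 1418 in aged livers. All middle-aged livers were below all young ones, whereas aged 1 was within the young range. Psmb1 fell by 20.8% in middle-aged livers (log2 -0.34, SE 0.10, DESeq2 adjusted p = 0.0154, edgeR adjusted p = 0.0786), and in aged livers its log2 fold change was -0.27 (adjusted p = 0.094).

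**Figure D3:**
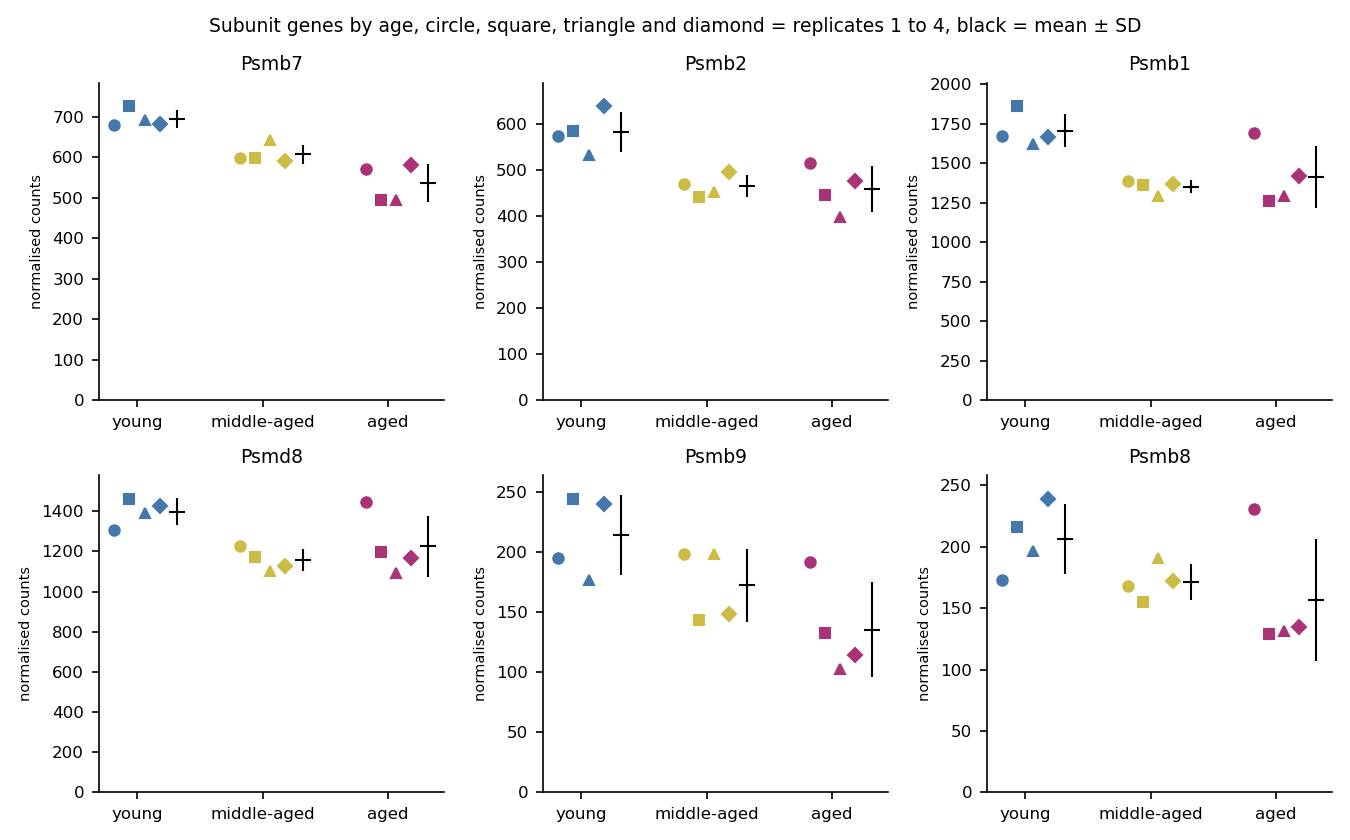
Each panel plots the normalised counts (vertical axis from 0) of 1 gene in the 4 livers of each age, with the mean ± SD in black, after scaling by median-of-ratios size factors. The ages did not overlap for Psmb7, and the aged circle (replicate 1) lay at or near the young livers for Psmb1 (1688), Psmd8 (1444) and Psmb8 (230.8).

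In the core as a whole, all 14 fold changes were below 0 at both older ages relative to the bulk of genes (all above 0 with spike-in size factors), with medians of -0.22 in aged and -0.23 in middle-aged livers. The aged values ran from -0.37 to -0.15 and the middle-aged ones from -0.34 to -0.15. In middle-aged livers 11 of the 14 had an unadjusted p under 0.05, as had 2460 of all 11333 genes tested, and 9 had every liver below every young liver, against 7.96% of all genes tested. In aged livers these counts were 6, beside 2154 of all 13527 genes, and 2, against 3.69% of all genes for the absence of overlap. The 7 alpha ring genes had medians of -0.20 and -0.22, and the 7 beta ring genes had medians of -0.27 and -0.26.

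The other catalytic genes of the core were not called. Psmb5, of the chymotrypsin-like site (chr14:54614119-54618022), was at 504.2, 620.2, 584.1 and 609.2 in young, 534.2, 489.3, 485.7 and 473.1 in middle-aged and 689.5, 500.9, 396.8 and 489.9 in aged livers. Psmb6, of the caspase-like site (chr11:70525367-70527858), was at 1353, 1721, 1475 and 1488 in young, 1409, 1201, 1216 and 1310 in middle-aged and 1671, 1230, 1109 and 1418 in aged livers. For both genes the ages overlapped, and the aged range covered most of the young one. Their aged log2 fold changes were -0.16 (SE 0.15, adjusted p = 0.674) and -0.15 (SE 0.13, adjusted p = 0.621). Psmb4, the core gene with the highest level per length, had log2 fold changes of -0.22 in aged livers (adjusted p = 0.342) and -0.26 in middle-aged livers (adjusted p = 0.154).

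Cap genes had smaller differences. Relative to the bulk of genes (all above 0 with spike-in size factors), 14 of 17 were below 0 in aged livers with a median log2 of -0.14 and 16 of 17 in middle-aged livers with a median of -0.15. The only cap gene called was Psmd8, which encodes a lid subunit (chr7:29174188-29180701), and only in middle-aged livers. It was at 1307, 1462, 1393 and 1426 in young, 1227, 1173, 1101 and 1129 in middle-aged and 1444, 1196, 1092 and 1167 in aged livers. The middle-aged livers were all below the young ones, and aged 1 lay within the young range. Psmd8 fell by 17.2% in middle-aged livers (log2 -0.27, SE 0.09, DESeq2 adjusted p = 0.0490, edgeR adjusted p = 0.118).

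Within the cap, the 6 ATPase genes were all below 0 at both ages, with medians of -0.15 and -0.15 and a range from -0.19 to -0.11 in aged livers. Psmc1 was at 1825, 1742, 1560 and 1835 in young livers, 1613, 1687, 1555 and 1533 in middle-aged livers and 1764, 1507, 1512 and 1479 in aged livers, with an aged log2 fold change of -0.15 (adjusted p = 0.343). The 8 lid genes had medians of -0.13 in aged and -0.19 in middle-aged livers. The 3 other genes of the base had medians of 0.01 and -0.08. Psmd1, the scaffold gene, was at 1073, 973.0, 1095 and 1083 in young, 984.9, 1075, 1098 and 1075 in middle-aged and 1128, 1113, 1080 and 1121 in aged livers, where the aged log2 fold change was 0.07 (adjusted p = 0.658). The highest aged value in the cap was 0.14 (adjusted p = 0.296) for the lid gene Psmd11, singled out after its values were seen.

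Directly between aged and middle-aged livers no proteasome gene was called by DESeq2 or by edgeR, with 46 tested. Of these, 3 had an unadjusted p under 0.05, as had 1017 of all 10236 genes tested, of which 1.14% were called. The core median was 0.03 and the cap median 0.02. Over the 3 ages together, the likelihood ratio test called Psmb7 (adjusted p = 0.0015), Psmb2 (0.0128) and Psmb1 (0.0213), where 6.96% of 12430 genes were called and edgeR called none of the 50.

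Summed over its 14 genes, the core reached 15963 ± 1074 normalised counts in young livers, 13437 ± 411 in middle-aged livers and 13685 ± 2013 in aged livers (SD, n = 4 each). The young sums were 15212, 17421, 15099 and 16119, the middle-aged sums 13955, 13454, 12951 and 13387, and the aged sums 16365, 12493, 11835 and 14046. All middle-aged livers were below all young ones, and among aged livers aged 1 was above 3 of the 4 young livers while the other 3 were below all of them. The 17 cap genes summed to 19087 ± 813, 17350 ± 400 and 17784 ± 1812 in the same order, again with aged 1 at the top (20426, against 16412 to 17451 in the other aged livers). The log2 ratio of core to cap, which does not depend on the size factors, had a mean of -0.26 ± 0.0886 for young, -0.369 ± 0.039 for middle-aged and -0.384 ± 0.11 for aged livers (SD). The highest young ratio belonged to young 2 (-0.131) and the aged values from -0.482 to -0.262 overlapped the young ones. All middle-aged ratios (-0.403 to -0.333) were below all young ones, of which the lowest was -0.324.

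**Figure D4:**
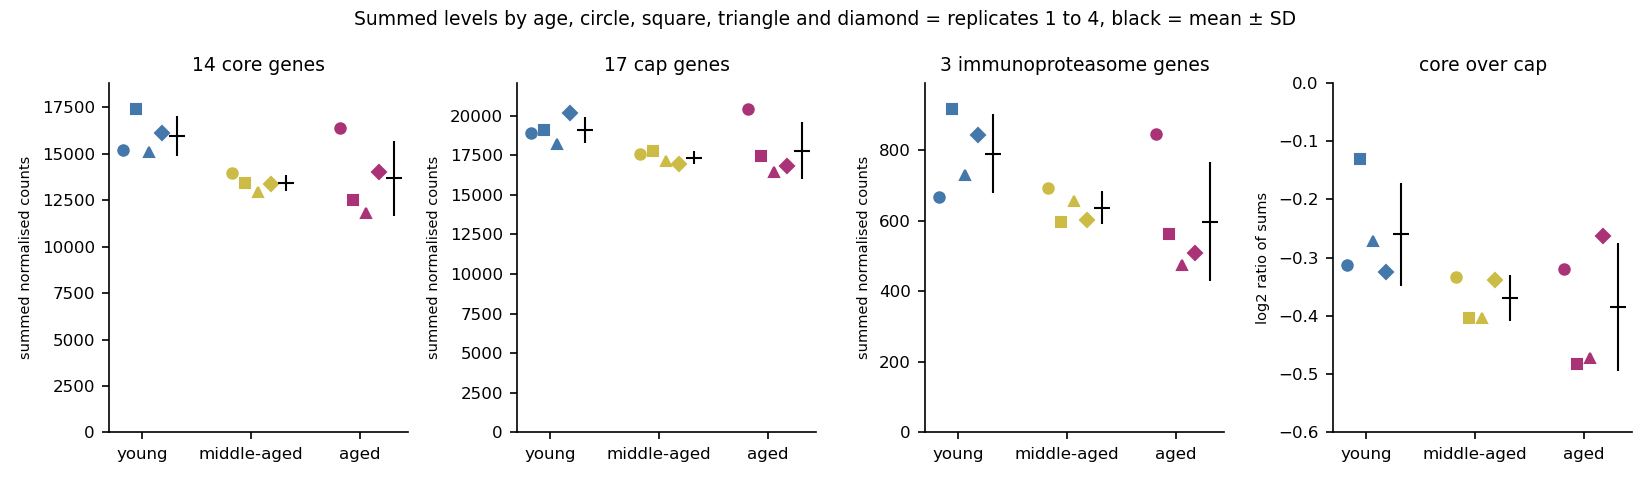
The first 3 panels show the summed normalised counts of the core, cap and immunoproteasome genes in each liver (vertical axis from 0) and the last shows the log2 ratio of core to cap, with the mean ± SD of 4 livers in black and sums scaled by median-of-ratios size factors. Aged 1 lay at 16365 in the core and 20426 in the cap, above the other aged livers.

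Spread between livers of 1 age was largest in the aged group. The median coefficient of variation of the core genes was 7.84% at 3 months, 5.05% at 12 months and 15% at 18 months, beside 11.3, 8.76 and 13.2% over all genes with a mean of at least 100. Aged 1 was the highest of the 4 aged livers for 40 of the 50 genes, 13 of them in the core and 15 in the cap. Its core genes averaged 0.02 above the young mean on the log2 scale, whereas aged 2, 3 and 4 averaged -0.35, -0.44 and -0.19. With aged 1 left out, 22 proteasome genes were called lower in aged against young livers, 11 of them in the core and 7 in the cap, and the core median was -0.34. Calls over all genes rose from 484 to 1291 in the same setting, and the cap median went from -0.14 to -0.22. With any other library left out, the aged core median lay between -0.26 (without young 3) and -0.15 (without aged 3), with -0.17 without young 2. The cap median then lay between -0.16 and -0.10. Young 2 was the highest of all 12 livers for 9 of the 14 core genes, and aged 3 was the lowest for 10. Psmb7, Psmb2 and the chaperone gene Psmg4 were below all young livers in aged 1 as well. In the middle-aged comparison the count of called genes ran from 0 (without young 2, middle-aged 2 or middle-aged 3) to 6 (without aged 1). Calls over all genes were 727 with all libraries, 364 without young 2, 345 without middle-aged 2, 430 without middle-aged 3 and 1096 without aged 1.

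**Figure D5:**
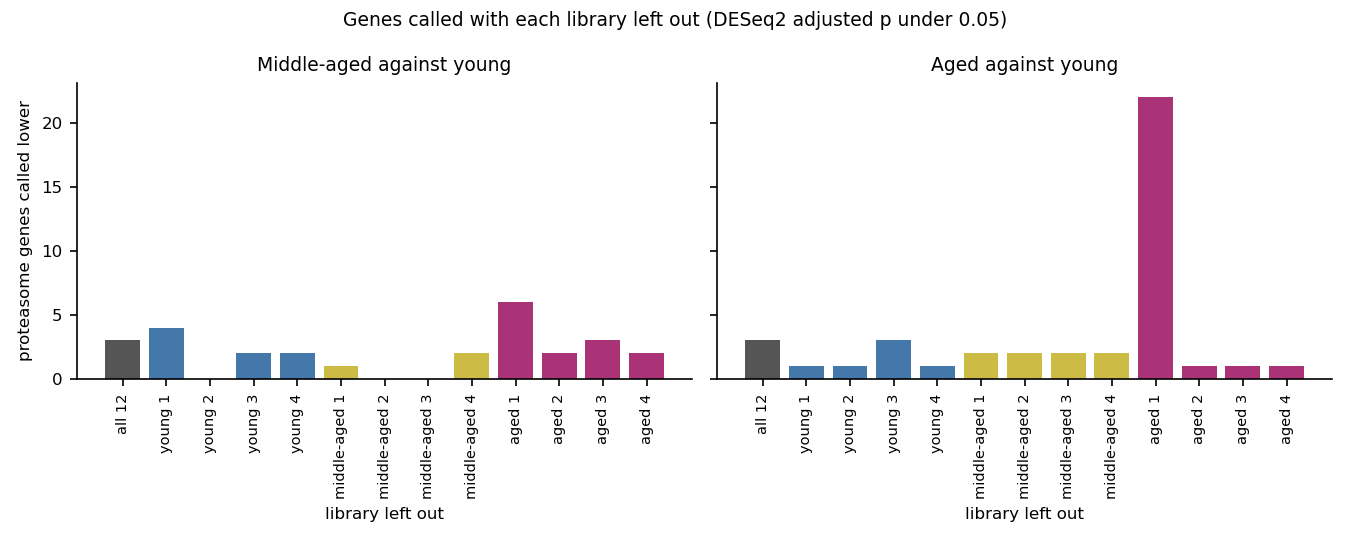
Bars count the proteasome genes called lower against young livers (vertical axis, DESeq2 adjusted p under 0.05, median-of-ratios size factors) with all 12 libraries and with each library left out in turn. In aged livers the count was 3 with all libraries (484 over all genes), 22 without aged 1 (1291 over all genes) and at most 3 without any other library (237 to 506 over all genes).

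With a smooth adjustment of the counts for transcript length and GC content, the core medians were -0.14 and -0.14 and the cap medians -0.10 and -0.09 in aged and middle-aged livers. Psmb7 and Psmb9 were then called in aged livers and Psmb1 and Psmd8 in middle-aged livers. Within replicates 1 and 2 alone, the core medians were -0.17 (aged) and -0.25 (middle-aged) with no gene called, and within replicates 3 and 4 alone they were -0.28 and -0.25 with only Psmb9 called, in aged livers.

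Among the inducible catalytic genes, Psmb9 was called in aged livers. This gene of the inducible caspase-like site (chr17:34181987-34187764, minus strand) was at 195.3, 244.5, 176.5 and 240.2 in young, 198.6, 143.6, 198.7 and 148.3 in middle-aged and 191.7, 132.9, 103.1 and 114.4 in aged livers. Aged 2, 3 and 4 were below every young liver, while aged 1 lay within the young range. Psmb9 fell by 36.8% in aged livers (log2 -0.66, SE 0.21, DESeq2 adjusted p = 0.0457), edgeR did not call it (adjusted p = 0.0979), and its middle-aged log2 fold change was -0.31 (adjusted p = 0.387).

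Psmb8, of the inducible chymotrypsin-like site (chr17:34197721-34201454), was at 173.0, 216.5, 196.7 and 239.2 in young, 167.8, 155.3, 190.7 and 172.4 in middle-aged and 230.8, 129.1, 131.1 and 135.0 in aged livers. Aged 2, 3 and 4 were again below every young liver and aged 1 was not. Its aged log2 fold change was -0.40 (SE 0.20, adjusted p = 0.282). Psmb10, of the inducible trypsin-like site (chr8:105935735-105938444), was at 298.3, 455.9, 356.6 and 363.2 in young, 327.7, 298.1, 266.7 and 281.6 in middle-aged and 422.5, 300.5, 239.4 and 258.3 in aged livers, with overlap between all ages. Its aged log2 fold change was -0.27 (SE 0.18, adjusted p = 0.51).

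Ratios of each inducible gene to the standard gene whose product it replaces were compared within libraries by two-sided exact permutation, in 9 tests with a smallest possible p of 0.0286. The ratio of Psmb9 to Psmb6 was 0.144, 0.142, 0.12 and 0.161 in young livers, 0.141, 0.12, 0.163 and 0.113 in middle-aged livers and 0.115, 0.108, 0.093 and 0.0807 in aged livers, so every aged value was below every young one, aged 1 included. The mean log2 ratio was -3.35 ± 0.23 in aged and -2.83 ± 0.18 in young livers, a difference of -0.52 (SD, n = 4 each, exact permutation p = 0.0286, Benjamini-Hochberg p = 0.129). For Psmb8 over Psmb5 the aged ratios of 0.335, 0.258, 0.33 and 0.276 were likewise below the young ones of 0.343, 0.349, 0.337 and 0.393 (difference -0.25 in log2, exact permutation p = 0.0286, Benjamini-Hochberg p = 0.129). For Psmb10 over Psmb7 the difference was 0.09 (exact permutation p = 0.714). None of the 9 passed after adjustment.

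Psmb9 and Psmb8 lie in the major histocompatibility complex on either side of Tap1, the gene of a peptide transporter subunit, and 212 exonic bases of Psmb9 overlap Tap1 on the opposite strand. Tap1 was at 174.1, 194.9, 227.5 and 228.4 in young livers and 197.7, 231.2, 170.4 and 192.2 in aged livers, which overlapped (log2 -0.06, SE 0.14, adjusted p = 0.9). Leukocytes are rich in immunoproteasome, and of 15 leukocyte markers, none at 0 over all libraries, 11 of the 13 tested were below 0 in aged livers with a median log2 of -0.50, and none was called. Several held few counts over all libraries (Nkg7 65, Cd3g 88, Cd2 127), beside 2191 for Laptm5. Cd3g was at 28.4 in young 3 and 5.3 to 6.8 in the other young livers. The summed level of the 15 markers ranged from 536 to 851 in young, 430 to 1303 in middle-aged and 455 to 683 in aged livers. The part of these markers in the Psmb9 result was not tested.

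Windows around the RefSeq starts of 2 standard and 2 inducible catalytic genes are shown because these pairs encode alternative active sites. Each runs from 250 bases before to 50 bases after the RefSeq start (GRCm38.p6), 5′ to 3′ on the strand of the gene, and capitals mark matches on either strand to TGACNNNGC (core of the antioxidant response element, to which Nfe2l1 and Nfe2l2 bind), CCAAT, GAAA, any pair of bases and GAAA again (core of the interferon-stimulated response element) and TTCNNNGAA (core of the gamma-activated site).
Psmb6, chr11:70525107-70525406, plus strand: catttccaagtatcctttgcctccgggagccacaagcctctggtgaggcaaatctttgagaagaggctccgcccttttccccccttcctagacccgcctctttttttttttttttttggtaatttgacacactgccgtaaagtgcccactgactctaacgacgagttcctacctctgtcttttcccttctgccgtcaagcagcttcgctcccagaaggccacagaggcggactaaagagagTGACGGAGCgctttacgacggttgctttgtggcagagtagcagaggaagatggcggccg
Psmb9, chr17:34187281-34187580, minus strand: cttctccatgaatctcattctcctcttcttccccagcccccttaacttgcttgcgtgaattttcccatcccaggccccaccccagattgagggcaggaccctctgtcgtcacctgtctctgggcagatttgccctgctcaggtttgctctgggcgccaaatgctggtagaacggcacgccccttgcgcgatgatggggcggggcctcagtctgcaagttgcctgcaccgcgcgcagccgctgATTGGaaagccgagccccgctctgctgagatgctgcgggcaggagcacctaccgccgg
Psmb5, chr14:54617946-54618245, minus strand: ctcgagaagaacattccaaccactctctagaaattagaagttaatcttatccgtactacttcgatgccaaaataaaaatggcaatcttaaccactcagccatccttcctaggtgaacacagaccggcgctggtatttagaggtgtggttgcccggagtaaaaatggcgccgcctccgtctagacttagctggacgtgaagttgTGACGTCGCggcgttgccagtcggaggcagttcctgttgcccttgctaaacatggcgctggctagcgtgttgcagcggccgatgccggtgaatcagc
Psmb8, chr17:34197945-34198244, plus strand: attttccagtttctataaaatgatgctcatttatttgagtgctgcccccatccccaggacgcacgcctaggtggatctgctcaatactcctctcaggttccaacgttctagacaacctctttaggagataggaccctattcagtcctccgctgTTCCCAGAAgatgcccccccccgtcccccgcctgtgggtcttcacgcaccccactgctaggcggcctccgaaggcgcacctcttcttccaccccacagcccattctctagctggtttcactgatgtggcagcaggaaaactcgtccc
The capitals mark an antioxidant response element core in Psmb6 and Psmb5, a CCAAT box read on the other strand in Psmb9 and a gamma-activated site core in Psmb8. The windows of Psmb9 and Psmb8 lie wholly within the annotated spans of these genes (chr17:34181987-34187764 and chr17:34197721-34201454). They do not reach the annotated 5′ ends, and sequence upstream of those ends was not searched for these 2 genes.

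The RefSeq table held a window for 42 of the 50 genes. It held none for Psmb1, Psmb2 and Psmb7, the core genes called above, so the core counts below do not cover them. No window of Psmb7 was available to set beside that of Psmb10. An antioxidant response element core was in 6 of the 42 (14.3%), beside 12.5% of all 27025 windows, and CCAAT was in 15 (35.7%), beside 37.9%. In the core, CCAAT was in 6 of 11 (54.5%). The interferon-stimulated core was in 5 of the 42 (11.9%), beside 3.49% of all windows, namely Psmb3, Psmd4, Psme1, Psmd9 and Psmg4, and the gamma-activated core was in 3 (7.14%), beside 8.47%. The median GC content was 57.3% in the windows of these genes and 52.7% in all windows. No interferon-stimulated core was in the windows of Psme2 or of the 3 inducible catalytic genes. The windows of Psmb9 and Psmb8 do not reach the annotated 5′ ends, so this absence does not cover the sequence upstream of those ends. The match of Psme1 is shown with its flanks because Psme1 encodes an interferon-induced activator subunit, and that of Psmb3 because it was the only one in the core, with the matched letters in capitals. The Psme1 window (chr14:55578244-55578543) lies wholly within the annotated gene, which starts at 55578123.
Psme1, chr14:55578493-55578522, minus strand: agcgggaaggGAAAGCGAAAgcacagctcg
Psmb3, chr11:97703261-97703290, minus strand: atggaaagcgGAAAGTGAAAagtcactgtg

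Activator and chaperone genes were not called at either age. Psme1 and Psme2 encode the interferon-induced activator ring. Psme1 (chr14:55578123-55581529) was at 908.6, 1077, 951.5 and 1047 in young, 821.1, 948.1, 825.6 and 861.9 in middle-aged and 1131, 784.1, 812.7 and 990.5 in aged livers, with overlap between ages (aged log2 -0.10, SE 0.12, adjusted p = 0.771). Psme2 (chr14:55587441-55591113) was at 747.3, 1024, 856.7 and 936.2 in young, 681.1, 731.7, 644.6 and 743.7 in middle-aged and 891.2, 682.0, 633.6 and 708.9 in aged livers. Its middle-aged livers were all below the young ones (log2 -0.35, SE 0.13, adjusted p = 0.0724), and its aged log2 fold change was -0.29 (adjusted p = 0.205). Psme2b, whose near identity to Psme2 makes its counts uncertain, was at 33.1 in young 2 and between 10.6 and 18.8 in the other livers.

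The 7 chaperone genes had median log2 fold changes of -0.08 in aged and -0.17 in middle-aged livers. Psmg1, a chaperone of the alpha ring, was at 243.1, 244.5, 223.9 and 249.9 in young and 291.0, 194.6, 196.6 and 216.3 in aged livers, with aged 1 highest. Psmg3, another chaperone of the core, was at 95.5, 110.8, 97.2 and 94.7 in young and 89.4, 74.5, 70.6 and 65.1 in middle-aged livers, which did not overlap (log2 -0.41, SE 0.19, adjusted p = 0.186). Psmf1 had an aged log2 fold change of 0.07 (adjusted p = 0.836). Psma8 lay between 1.0 and 24.2, Psmc3ip between 1.0 and 6.8, and Psmb11 had 1 count in young 3 and 0 elsewhere, which a floor of 3 counts does not separate from absence. The 4 pseudogenes with proteasome symbols held 2 or 3 counts each over all libraries.

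Genes that serve the proteasome moved in both directions. Beside the calls below, 3.58% of all genes tested were called in aged and 6.41% in middle-aged livers. Of 12 partners tested, Txnl1, a thioredoxin bound to the cap, fell in aged (log2 -0.28, SE 0.06, DESeq2 adjusted p = 0.00194, edgeR 0.0759) and middle-aged livers (log2 -0.30, SE 0.06, DESeq2 adjusted p = 0.000407, edgeR 0.0445). Zfand5, which encodes a proteasome activator, rose in aged livers (log2 0.42, SE 0.12, DESeq2 adjusted p = 0.0259, edgeR 0.0874). Pomp, the maturation factor of the core, was at 1436, 1749, 1443 and 1483 in young, 1210, 1165, 1017 and 1150 in middle-aged and 1432, 1121, 1043 and 1218 in aged livers. Every older liver was below every young one, which held for 3.69% of all genes tested in aged and 7.96% in middle-aged livers. Pomp fell in middle-aged livers (log2 -0.43, SE 0.11, DESeq2 adjusted p = 0.00579, edgeR 0.0553) with an adjusted p of 0.054 in aged livers (log2 -0.34). Adrm1, a ubiquitin receptor of the cap outside the name rule, had log2 fold changes of 0.02 (adjusted p = 0.968) and -0.09 (adjusted p = 0.648).

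Nfe2l1, the transcription factor that raises proteasome genes when proteasome activity is low, was at 869.3, 877.5, 959.8 and 922.6 in young, 1055, 1155, 1056 and 1003 in middle-aged and 1278, 1256, 1249 and 1048 in aged livers. All older livers were above all young ones, the direction opposite to that of the core genes relative to the bulk of genes. The same absence of overlap held for 520 of all 13527 genes tested in aged and 906 of 11333 in middle-aged livers. Nfe2l1 rose in aged livers (log2 0.41, SE 0.08, DESeq2 adjusted p = 0.000218, edgeR adjusted p = 0.0314), with a middle-aged log2 fold change of 0.23 (adjusted p = 0.0679). Of the 7 genes of its list, Nfe2l2 also rose in aged livers (log2 0.68, SE 0.17, DESeq2 adjusted p = 0.00693, edgeR 0.0577), and none was called in middle-aged livers. Of all genes tested, 3.58% and 6.41% were called at these ages.

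Of the ubiquitin and shuttle genes, 0 of 17 were called in aged livers (3 at an unadjusted p under 0.05), and of the 16 tested in middle-aged livers the ubiquitin precursor gene Rps27a fell (log2 -0.47, DESeq2 adjusted p = 0.00792, edgeR 0.0595). Of all genes tested, 3.58% were called in aged and 6.41% in middle-aged livers. An unadjusted DESeq2 p under 0.05 was reached by 2154 of all 13527 genes in aged livers. The list counts here are to be read against these shares. Of 12 genes of antigen presentation by class I molecules, only B2m, the light chain, was called, in middle-aged livers (log2 -0.26, DESeq2 adjusted p = 0.00579, edgeR 0.111). Of 18 interferon-responsive genes 4 fell in middle-aged livers, namely Ifit1, Ifit3, Isg15 and Irgm1 (log2 -0.85, -0.78, -0.88 and -0.53), beside 2.90% of all genes tested that were called lower. The list median was -0.47. In aged livers 16 of the 18 were below 0 with a median of -0.31, and none was called (5 at an unadjusted p under 0.05). For the macrophage, endothelial, stellate, cholangiocyte and hepatocyte markers the summed levels of young and aged livers overlapped. For hepatocyte markers only aged 1 (874854) lay within the young range (856636 to 905861). Aged 2, 3 and 4 were above it, at 980800, 989917 and 1093495. Alb, the marker with the highest level, made up most of each sum. It was at 485654 to 558814 in young livers and 525628, 633890, 697979 and 774027 in aged livers. Alb had an aged log2 fold change of 0.31 (DESeq2 adjusted p = 0.084), while 7 of the 10 hepatocyte markers were below 0. The part of the higher marker sums in the core levels was not tested. Of the 12 macrophage markers 10 were below 0 in aged livers, with a median of -0.09. Single markers called in aged livers were Marco of macrophages (log2 2.46, DESeq2 adjusted p = 0.0178, edgeR 0.075), Ecm1 of stellate cells (log2 0.57, DESeq2 adjusted p = 0.00118) and, of cholangiocytes, Sox9 (log2 0.86, DESeq2 adjusted p = 0.0169, edgeR 0.074) and Tff3 (log2 -4.06, DESeq2 adjusted p = 0.000224). Marco was at 790.8 in aged 1 and between 96.1 and 261.0 in the other aged livers, beside 36.7 to 79.1 in young livers, and its part in the levels of aged 1 was not tested.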

How the data were processed

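The authors deposited whole-number counts per gene, not normalised, for 12 liver libraries and 92 spike-ins. The submitters' processing notes name STAR 2.5.2b, SAMtools 1.9, featureCounts and the builds mm10 and GRCm38, without roles, and use of strand in counting is not given in the sources used here. The described preparation covers young and old livers only, the study took its 3-age data from a public atlas, and its legend lists fewer aged livers than the table holds without naming one, so all 4 were used. Groups and replicate numbers came from titles, and p-values measure the spread between single animals.

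Genes were annotated with GENCODE M21 (53360 of 53465 identifiers found). Genes with at least 1 count were tested with DESeq2, the tool the study used (here 1.42.0 in R 4.3.3), age group as the only term, Wald tests for pairs and a likelihood ratio test for 3 ages, Benjamini-Hochberg adjusted over all genes tested. Alternatives included edgeR 4.0.16 quasi-likelihood tests, other size factors, filters, offsets for length and GC (lowess span 0.3), the spike-in sets and leaving out libraries. Code was tested on simulated data. Depth was 8124312 to 10527159 gene counts per library, 4 animals per age limit the precision, and 15 of the 50 genes share exonic bases with another annotated gene. Members and lists were chosen with earlier results of these data known. Named were called members, catalytic subunits, Psme1, Psme2, the highest and lowest per length in each class, up to 4 called genes per pathway list, and Nfe2l1, Adrm1 and Pomp. Psmd11, Psmd4, Psmd9, Psmg4, Psmb3, Nek6 and Tap1 were named beside these. A called gene of the pathway lists is not reported here.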

Additional observations from a re-analysis of the deposited data

Results flagged for a closer look

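A gap test within each group of 4 livers singled out 5 of 72 groups of values given above, and over all proteasome genes 14 of 165, where chance alone gives about 8.25. Psmb7 was at 642 in middle-aged 3, with the other middle-aged livers between 589 and 598. Psmb8 was at 231 in aged 1 (others 129 to 135), and Psmc1 was at 1764 in the same liver (others 1479 to 1512). Psme2b was at 33.1 in young 2 (others 10.7 to 12.7), and Psmg3 was at 111 in the same liver (others 94.7 to 97.2). The differences between these livers were not tested further.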

How the results depend on the processing

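Of the called members, Psmb7 kept its aged call in 23 of 25 alternatives with a test (lost within replicates 1 and 2 alone, adjusted p = 0.725, and within replicates 3 and 4 alone, adjusted p = 0.327). Psmb2 kept its aged call in 9 and its middle-aged call in 11, Psmb9 its aged call in 8, Psmb1 its middle-aged call in 16 and Psmd8 its middle-aged call in 6 of 25, always with the same sign. Spike-in factors are not among these 25. The cause of the changes below was not tested.

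Called genes in aged livers (3) numbered 1 with edgeR, total counts, no independent filtering, only the 2 groups compared, or replicates 3 and 4 alone, 0 with replicates 1 and 2 alone, 36 (all higher, 8829 over all genes) with spike-in factors, and 1 to 22 with a library left out. In middle-aged livers (3) they numbered 0 with edgeR, total counts, either pair of replicates, or without young 3 and middle-aged 1 together (an alternative chosen after seeing the data), 1 with no independent filtering, 11 with only the 2 groups compared (1166 over all genes, against 727), 47 (all higher, 11618 over all genes) with spike-in factors, and 0 to 6 with a library left out. Over 3 ages (3) they numbered 0 with edgeR, total counts, either pair of replicates or without young 3 and middle-aged 1, 46 with spike-in factors (10527 over all genes, against 865), and 1 to 20 with a library left out (1637 over all genes without aged 1). The aged against middle-aged count was 0 in every alternative.

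Same-numbered livers are different animals and their deviations correlated between -0.303 and 0.159, so the numbers do not pair them. With a replicate block the counts were 1 (aged), 0 (middle-aged) and 0 (3 ages), and with the block and length and GC offsets 1 in middle-aged livers and 0 over 3 ages.

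Spike-in factors gave core medians of 0.93, 1.28 and -0.33 and cap medians of 1.02, 1.34 and -0.31 (aged against young, middle-aged against young, aged against middle-aged), beside a median of all genes of 1.18 and 1.50 in the first pairs. Relative to that median the core lay at -0.24 and -0.22. Total counts gave core medians of -0.11 and -0.12 and cap medians of -0.02 and -0.04 against young, beside a median of all genes of 0.12 at both ages, and replicates 1 and 2 alone an aged cap median of -0.05. Signs turned for Psmb5 in aged livers with replicates 1 and 2 alone (0.09), for Psme1 in aged livers with total counts (0.02), for the middle-aged difference of Psmb8 over Psmb5 without young 4, middle-aged 1 or middle-aged 2 (-0.10 to 0.01 over all libraries left out in turn), and for the aged difference of Psmb10 over Psmb7 without aged 1 (-0.05 to 0.20 likewise).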
